A study of Mus musculus with 12 samples.

Results

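The genes described here are 8 genes of cholesterol synthesis, its feedback control and its efflux, namely Hmgcs1, Sqle, Idi1, Cyp51, Srebf2, Insig1, Abca1 and Abcg1. They were taken by symbol from 2 expression tables that each list 25124 genes, and all 8 had a mean of at least 0.5 FPKM (fragments per kilobase of transcript scaled by the number of mapped tags) in both tables, among 13731 genes tested in one table and 13718 in the other. The set was named for synthesis, uptake and efflux, but none of the 8 encodes an uptake receptor, so uptake is described below from other genes.

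Bulk retinas of wild-type C57BL/6J mice were profiled by strand-specific poly-A RNA-seq, with 2 libraries in each of 6 groups. In the single-elevation table, 3mo and 18mo mice had the intraocular pressure (IOP) of one eye held at 30 mmHg for 1 h, and retinas collected on day 2 formed the 3mo IOP and 18mo IOP groups, with the untreated contralateral eyes as 3mo control and 18mo control. In the second table the elevation was given 4 times, every other week, to mice that were 3 months old at the first one, and retinas taken 2 days after the last formed the 4xIOP group, again beside contralateral eyes (4xIOP control). A control retina was therefore untreated but came from an animal whose other eye had been treated, and the labels do not say which libraries came from the same animal.

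Cholesterol is built from acetyl-CoA through mevalonate, isoprenoid units, squalene and lanosterol. The transcription factor SREBP2, the product of Srebf2, is kept in the endoplasmic reticulum with SCAP and the INSIG proteins while sterols are plentiful, and when they are scarce it is released and turns on the synthesis enzymes and Insig1. Oxysterols act the other way through the liver X receptors (LXR), which turn on Abca1 and Abcg1, the transporters that hand cholesterol to lipoproteins. In the retina both local synthesis and uptake through the pigment epithelium supply sterol, and Müller glia and photoreceptors differ in how they make and clear it.

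Between 39766233 and 59455051 mapped tags, fitted from the deposited values, stood behind each library, of which 44.2% to 71.5% fell in exons. The lowest count behind a member's value was 118 reads (Idi1) and the highest 6180 (Abcg1). Rod markers summed to 4575 FPKM or more in every library, so each was retina by its defining genes, and no marker of rods, Müller glia, ganglion cells or microglia was at 0. One of the 3mo control libraries, replicate 2, stood apart in the balance of transcript lengths: the median FPKM of coding transcripts under 1000 bases was 8.14 times that of transcripts of 4000 bases or more, against 3.26 times in replicate 1, 5.31 and 6.15 times in 3mo IOP and 1.75 to 2.05 times in the 4 18mo libraries. The 4xIOP replicate 1 library stood apart in the members themselves, as given below.

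The promoter windows of 4 members are shown because they carry the letters known to be read by the factors of this pathway. By sign of the age difference, Hmgcs1 and Insig1 were negative and Srebf2 and Abca1 positive. Srebf2 passed in neither kind of retina, and its sign turned with length and GC trends removed, as given below. RefSeq windows (GRCm38.p6) from 250 bases before to 50 after the transcript start were found for 6 of the 8 members, and the 250 bases before the start are printed here, 5′ to 3′ on the gene's own strand. Capitals mark matches, on either strand, to the sterol regulatory element core TCACNCCAC, its shorter form TCACCCCA (added after the windows had been read), the E-box CACGTG and the NF-Y box CCAAT, which reads ATTGG on the other strand.
Hmgcs1 (chr13:119690101-119690350, plus strand): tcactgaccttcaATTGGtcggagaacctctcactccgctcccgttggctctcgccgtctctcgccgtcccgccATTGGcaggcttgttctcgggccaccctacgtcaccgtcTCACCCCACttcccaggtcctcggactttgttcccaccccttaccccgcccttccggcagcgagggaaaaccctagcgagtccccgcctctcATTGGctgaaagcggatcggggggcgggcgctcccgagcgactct
Srebf2 (chr15:82147019-82147268, plus strand): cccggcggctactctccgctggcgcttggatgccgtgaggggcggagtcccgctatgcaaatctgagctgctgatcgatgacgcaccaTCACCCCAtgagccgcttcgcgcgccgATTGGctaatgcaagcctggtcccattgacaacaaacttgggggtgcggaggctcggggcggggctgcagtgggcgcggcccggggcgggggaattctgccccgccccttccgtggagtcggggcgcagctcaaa
Insig1 (chr5:28071162-28071411, plus strand): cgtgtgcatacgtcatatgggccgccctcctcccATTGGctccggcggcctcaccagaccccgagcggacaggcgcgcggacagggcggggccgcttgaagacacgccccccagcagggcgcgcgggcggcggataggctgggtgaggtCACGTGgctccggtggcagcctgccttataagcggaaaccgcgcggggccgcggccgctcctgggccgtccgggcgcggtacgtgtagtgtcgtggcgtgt
Abca1 (chr4:53159896-53160145, minus strand): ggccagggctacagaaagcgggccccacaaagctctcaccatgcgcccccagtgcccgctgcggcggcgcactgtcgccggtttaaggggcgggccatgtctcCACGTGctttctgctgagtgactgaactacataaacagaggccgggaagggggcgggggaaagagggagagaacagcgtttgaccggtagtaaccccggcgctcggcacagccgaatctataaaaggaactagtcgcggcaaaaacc

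The full 9-letter core was found in 1 of the 6 members' windows, that of Hmgcs1, 137 bases before the start, against 1.24% of all 32851 windows. Its 8-letter form, which lies inside the Hmgcs1 match, was also found in Srebf2 162 bases before the start and in 1.56% of all windows. CACGTG was present in Insig1 (101 bases before) and Abca1 (147 bases before), and in 7.15% of all windows. CCAAT was present in 5 of the 6 windows, all but that of Abca1, against 37.4% of all windows, and Hmgcs1 held 4 copies, one of them past the start and outside the printed stretch. A direct repeat of AGGTCA with 4 bases between, the form LXR binds, was in none of the 6 windows at up to 2 mismatches, against 3.02% of all windows. At up to 3 mismatches it was in 3 of them, Hmgcs1, Insig1 and Abca1 (67 bases before the start), against 21.9% of all windows. These matches describe the letters in a short window and are not evidence of binding.

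Age was the comparison in which most members differed. Without treatment, the synthesis enzymes Hmgcs1 and Idi1 and the feedback gene Insig1 were lower at 18mo, and the efflux transporter Abcg1 was higher, at adjusted p alone. In the IOP retinas Hmgcs1, Idi1, Insig1, Sqle and Cyp51 were lower and Abca1 and Abcg1 higher by the same measure, and the interaction term given below passed for no member, so a difference between the 2 kinds of retina was not shown. The age comparisons used limma on log2(FPKM + 0.5), which understates the change of low genes, with Benjamini-Hochberg adjusted p over all genes tested. A gene was called at an adjusted p of at most 0.05 together with a log2 fold change of 1 or more in either direction, the study's own thresholds. In control retinas 0 of 8 members were called, when 23.2% of all tested genes were. At adjusted p alone 1 member was higher and 3 were lower (26.7% and 19.2% of all genes). The count lower was 2 without the filter or with only the groups compared, and 5 with the length trend removed. The 18mo control libraries lay above both 3mo control libraries for 3 members and below both for the other 5, and 45.7% and 32.8% of all genes did so. In IOP retinas 1 member was called higher (Abca1) and 1 lower (Insig1), against 21.8% of all genes called, and at adjusted p alone 2 were higher and 5 lower (23.0% and 19.6% of all genes). There too 3 members lay above and 5 below without overlap (43.2% and 34.5% of all genes). On the higher side the members' shares were near or below the background. On the lower side, at adjusted p alone and without overlap, they were above it in both kinds of retina, and since the members were chosen with earlier results known nothing particular to them is read from this.

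**Figure D1:**
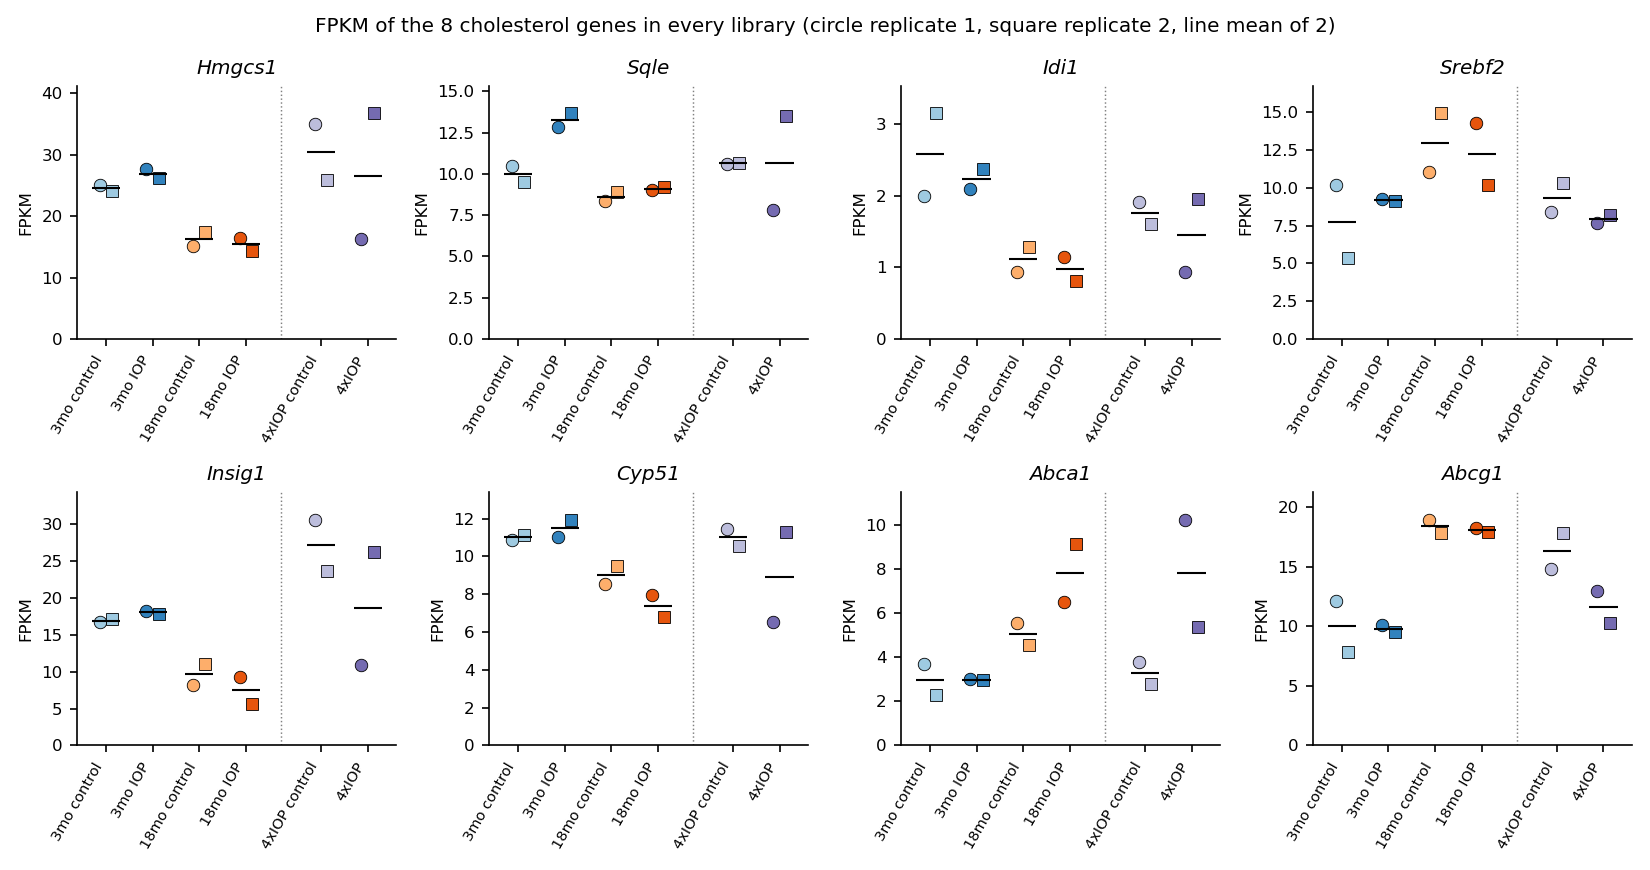
Deposited FPKM (vertical axes from 0, one scale per gene) of the 8 members in each of the 12 libraries, with circles for replicate 1, squares for replicate 2 and a line at the mean of 2 libraries; the dotted line separates the 2 tables. Hmgcs1, Idi1 and Insig1 sit lower in the 18mo groups, Abca1 and Abcg1 higher, and in the 4xIOP group the 2 libraries lie far apart for most members.

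Hmgcs1 encodes the cytosolic HMG-CoA synthase, an early enzyme of the mevalonate pathway. It was at 25.02 and 24.1 FPKM in 3mo control, 27.6 and 26.2 after IOP at 3mo, 15.2 and 17.4 in 18mo control and 16.5 and 14.3 after IOP at 18mo. All 4 young libraries were above all 4 old ones, 3mo IOP lay just above 3mo control, and the 18mo groups overlapped. The 18mo level was lower by a log2 fold change of -0.58 (SE 0.16, limma adjusted p = 0.0224) in control retinas and -0.79 (SE 0.16, adjusted p = 0.0100) in IOP retinas. With all libraries kept, the alternatives gave the control difference an adjusted p from 0.00281 to 0.0792.

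Sqle encodes squalene epoxidase, the first oxygen-using step and a second control point of the pathway. Its levels were 10.5 and 9.49 FPKM in 3mo control, 12.8 and 13.7 after IOP at 3mo, 8.34 and 8.88 in 18mo control and 9.0 and 9.19 after IOP at 18mo. The 4 groups did not overlap with their neighbours, in the order 3mo IOP, 3mo control, 18mo IOP, 18mo control. Between ages the log2 fold change was -0.20 (SE 0.15, limma adjusted p = 0.305) in controls and -0.52 (SE 0.15, adjusted p = 0.0292) in IOP retinas. With 3mo IOP above 3mo control by 0.39 (95% interval 0.04 to 0.75), Sqle was the member nearest to a difference after one elevation, but its adjusted p was 0.498.

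Idi1, the isopentenyl diphosphate isomerase, was the lowest member. The libraries held 2.00 and 3.16 FPKM in 3mo control, 2.10 and 2.38 after IOP at 3mo, 0.941 and 1.29 in 18mo control and 1.15 and 0.812 after IOP at 18mo. Young and old libraries did not overlap, while control and IOP overlapped at each age. The age difference was -0.92 in log2 (SE 0.25, limma adjusted p = 0.0213) in controls and -0.89 (SE 0.25, adjusted p = 0.0251) in IOP retinas. Since Idi1 is low, the pseudocount matters: with 0.1 in its place the control difference was -1.12 (adjusted p = 0.0229) and passed the fold threshold, and voom on recovered reads gave -1.36. Its adjusted p over all alternatives, each library left out included, ran from 0.00811 to 0.125. Without 3mo control replicate 2 the difference was -0.64 (adjusted p = 0.105).

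Cyp51 encodes lanosterol 14-alpha-demethylase, which acts after the sterol ring has closed. Its FPKM were 10.9 and 11.1 in 3mo control, 11.01 and 11.9 after IOP at 3mo, 8.54 and 9.52 in 18mo control and 7.98 and 6.82 after IOP at 18mo. The old libraries were below the young ones, 18mo IOP was below 18mo control, and the young groups overlapped. Its age difference was -0.27 in log2 (SE 0.16, limma adjusted p = 0.195) in controls and -0.60 (SE 0.16, adjusted p = 0.0218) in IOP retinas. At 18mo the IOP retinas differed from controls by -0.27 (adjusted p = 0.810).

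Insig1 encodes the sterol sensor that holds SCAP and SREBP2 back and is itself an SREBP2 target. It was at 16.7 and 17.1 FPKM in 3mo control, 18.2 and 17.8 after IOP at 3mo, 8.22 and 11.1 in 18mo control and 9.28 and 5.61 after IOP at 18mo. The young groups were tight and the old groups were lower and wider, with no overlap between ages. In controls the log2 fold change was -0.79 (SE 0.24, limma adjusted p = 0.0308). With all libraries kept, the alternatives gave this difference an adjusted p from 0.00830 to 0.0537. In IOP retinas Insig1 fell with age by 1.26 on the log2 scale (SE 0.24, adjusted p = 0.00887), the only synthesis or feedback member called in any comparison. Without 18mo IOP replicate 2 that difference was -0.92 (adjusted p = 0.0380), under the fold threshold. With either 3mo IOP library left out it kept its size, -1.24 and -1.28, but had an adjusted p of 0.0621 and 0.0577.

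Srebf2 encodes the SREBP2 precursor itself, and by sign its age difference lay on the side of the efflux genes. It stood at 10.2 and 5.36 FPKM in 3mo control, 9.27 and 9.13 after IOP at 3mo, 11.01 and 14.9 in 18mo control and 14.3 and 10.2 after IOP at 18mo. All old libraries were above the young ones, by a narrow margin, and 3mo control replicate 2 was well below the rest. The age difference of 0.75 in log2 (SE 0.30) in controls had an adjusted p of 0.0721 by limma, and that of 0.37 in IOP retinas one of 0.339. Removing the length and GC trends turned both, to -0.16 and -0.40, with adjusted p of 0.512 and 0.105 (over all alternatives 0.00784 to 0.512 in controls and 0.105 to 0.952 in IOP retinas). Without 3mo control replicate 1 Srebf2 was called higher in controls, at 1.19 (adjusted p = 0.00784), and without replicate 2 it was at 0.32 (adjusted p = 0.358).

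Abca1 encodes the transporter that passes cholesterol to lipid-poor apolipoproteins. Its levels were 3.69 and 2.27 FPKM in 3mo control, 3.03 and 2.96 after IOP at 3mo, 5.58 and 4.54 in 18mo control and 6.50 and 9.13 after IOP at 18mo. Every old library was above every young one, 18mo IOP was above 18mo control, and the young groups overlapped. The age difference was 0.70 in log2 (SE 0.25, limma adjusted p = 0.0507) in controls, and in IOP retinas Abca1 rose with age by 1.23 (SE 0.25, adjusted p = 0.00978). Without 3mo IOP replicate 1 or 2 the IOP value was 1.25 and 1.22 with an adjusted p of 0.0644 and 0.0630. At 18mo, IOP retinas were above controls by 0.57 (95% interval -0.01 to 1.15, adjusted p = 0.549).

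Abcg1, the partner transporter that loads cholesterol onto mature lipoprotein particles, was at 12.1 and 7.88 FPKM in 3mo control, 10.1 and 9.49 after IOP at 3mo, 18.9 and 17.8 in 18mo control and 18.2 and 17.9 after IOP at 18mo. The 4 old libraries agreed closely and all lay above the young ones, while control and IOP overlapped at both ages. The age difference was 0.88 in log2 (SE 0.21, limma adjusted p = 0.0132) in controls and 0.85 (SE 0.21, adjusted p = 0.0165) in IOP retinas. Without 3mo control replicate 2 the control value was 0.58 (adjusted p = 0.0190), and without replicate 1 it was 1.17 (adjusted p = 0.000647) and was called.

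**Figure D2:**
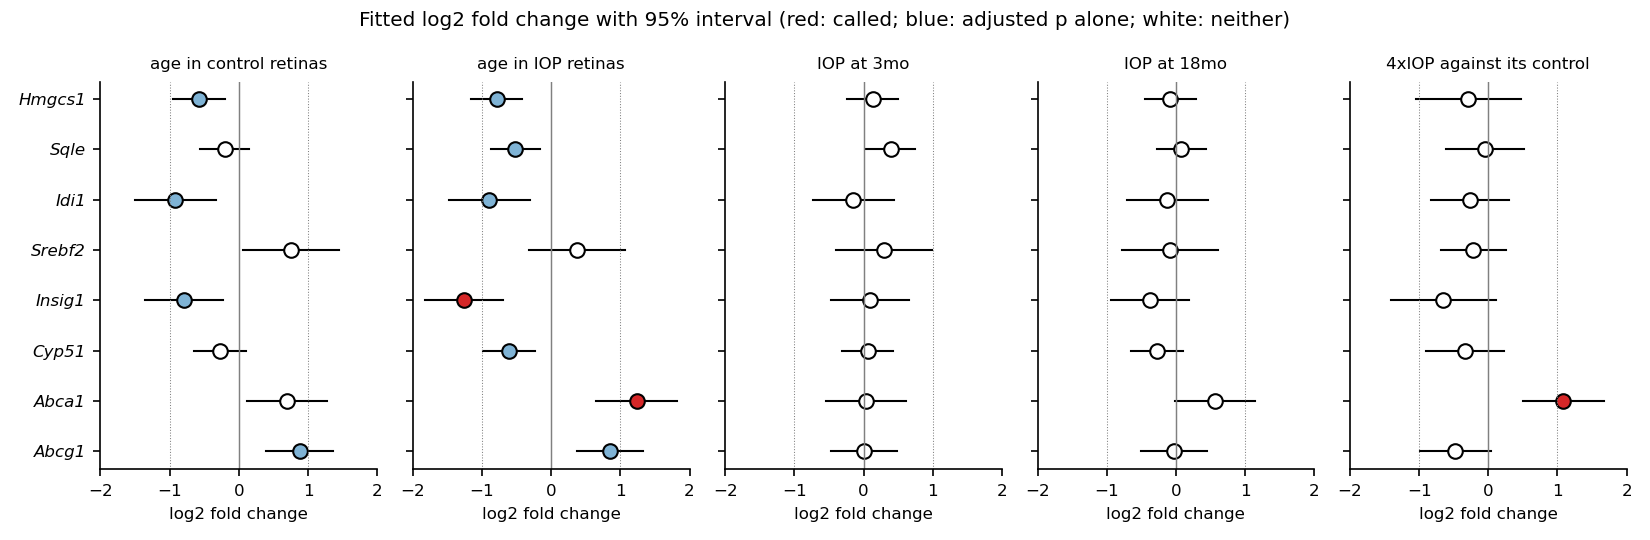
Fitted log2 fold change (horizontal axes) with its 95% interval for each member in 5 comparisons; red points were called, blue points passed on adjusted p alone, white points neither, and dotted lines mark a log2 fold change of 1 in either direction. Insig1 and Abca1 are red for age in IOP retinas, at -1.26 and 1.23, and Abca1 is red again in 4xIOP, at 1.08.

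The age differences of Abca1 and Abcg1 shrank when trends with transcript length and base composition were removed, that of Srebf2 turned sign, to -0.16 in controls and -0.40 in IOP retinas, and those of the synthesis enzymes and Insig1 kept their sign. Abca1 has the longest transcript of the set (10208 bases), followed by Abcg1 (5801) and Srebf2 (4549), and the balance of short to long transcripts differed between the ages in the same libraries. With a smooth trend over length removed from each library, the control age difference was 0.19 for Abca1, 0.42 for Abcg1 and 0.38 for Srebf2. With the GC trend removed as well, a correction chosen after the values were seen, it was 0.17 for Abca1 (limma adjusted p = 0.589) and 0.13 for Abcg1 (adjusted p = 0.430), and in IOP retinas 0.65 (adjusted p = 0.0622) and 0.15 (adjusted p = 0.371). Under that same correction Hmgcs1, Sqle, Cyp51 and Insig1 were lower with age in both kinds of retina at adjusted p alone, with Insig1 at -0.91 in controls (adjusted p = 0.0201) and -1.32 in IOP retinas (adjusted p = 0.00673), and Sqle at -0.40 (adjusted p = 0.0369) and -0.65 (adjusted p = 0.00858). Idi1 was at -0.55 (adjusted p = 0.0986) and -0.58 (adjusted p = 0.0832).

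**Figure D3:**
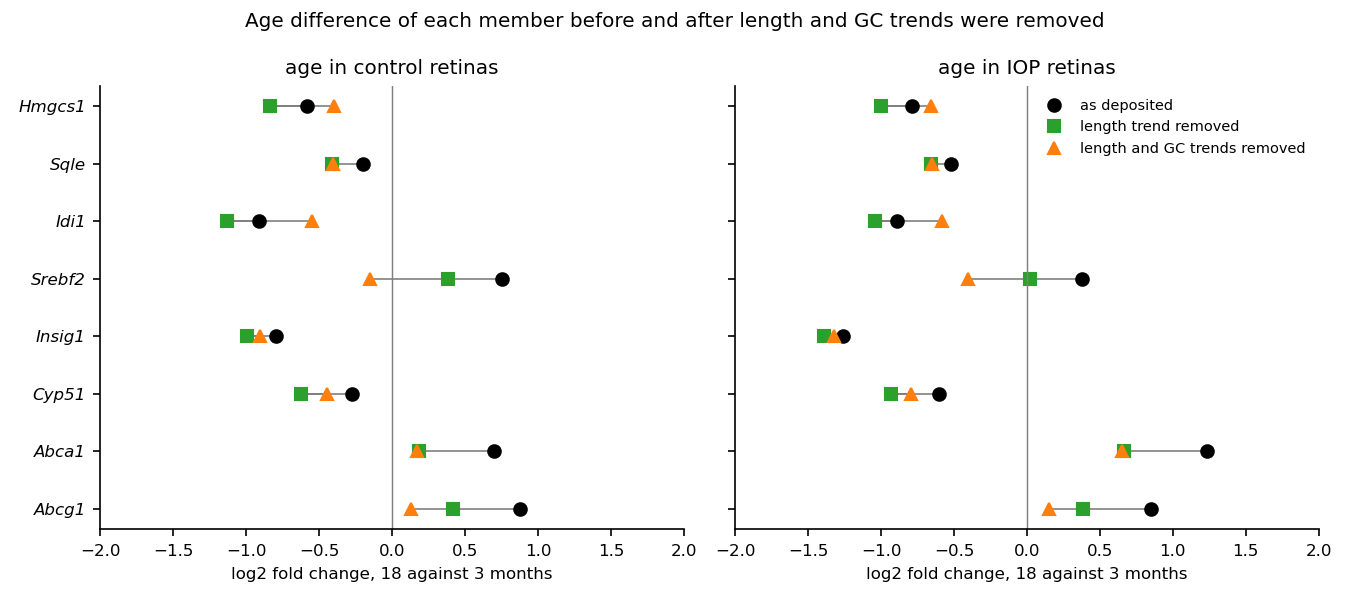
Log2 fold change of 18mo against 3mo (horizontal axes) for each member in control and in IOP retinas, from the deposited values (black circles), with the length trend removed (green squares) and with length and GC trends removed (orange triangles). Abca1, Abcg1 and Srebf2 move toward or past 0 under the corrections, whereas Insig1 stays between -0.79 and -0.997 in controls.

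The other genes of the pathway were taken in 4 lists, some of which hold members. Of 21 synthesis enzymes, the 4 synthesis members among them, 13 were negative in control retinas and 18 in IOP retinas, with a median of -0.27 and -0.52 against 0.16 and 0.09 over all genes. In each of these comparisons 4 were called lower, against 11.6% of all genes in both, and 0 higher: Msmo1, the sterol C4 oxidase (-1.54 and -1.85), Fdps, which makes farnesyl diphosphate (-1.34 and -1.76), Fdft1, the squalene synthase (-1.15 and -1.14), and, named after its values were seen, the sterol isomerase Ebp (-1.06 and -1.07). Msmo1 was at 35.0 and 58.7 FPKM in 3mo control and 14.7 and 15.9 in 18mo control. In IOP retinas it was at 46.4 and 47.8 at 3mo and 13.9 and 11.7 at 18mo. No old library reached the lowest young one in either case. The list was not uniform, since Tm7sf2, a sterol reductase named after its values were seen, was higher with age at adjusted p alone (0.85 in controls, limma adjusted p = 0.0105). With length and GC trends removed the list medians were -0.40 and -0.54, and 17 and 18 of the 21 genes were negative. Under that correction 2 genes of the list were called lower in controls and 3 in IOP retinas, with Fdps at -0.88 and Ebp at -0.96 in controls. In controls 6 were called lower without 3mo control replicate 1 and 1 without replicate 2, 1 without 18mo control replicate 1 and 2 without its replicate 2. In IOP retinas 1 was called without 3mo IOP replicate 1 and 2 without its replicate 2.

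Among 7 genes of sterol sensing, Srebf1 (1.03) and Scap (1.09) were called higher with age in controls and Insig1 alone was called, lower, in IOP retinas, against 11.6% of all genes called in each of these directions. Srebf1, which encodes the fatty acid counterpart of SREBP2, and Scap were at 0.16 and 0.20 once length and GC trends were removed. No gene of this list was called higher in controls with size factors, with voom, with the length trend removed or without 3mo control replicate 2 or either 18mo control library, and 4 were without 3mo control replicate 1. Insig2, the second INSIG gene, was between 10.2 and 15.8 FPKM in the single-elevation libraries, with -0.39 in log2 between ages in controls (limma adjusted p = 0.0788).

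Uptake and handling was covered by 14 genes, 13 of them tested in the single-elevation table. In controls the scavenger receptor gene Scarb1 (1.17) and the lipoprotein receptor gene Lrp1 (1.43) were called higher with age, and in IOP retinas Lrp1 (1.70), Lrp8 (1.15) and Scarb1 (1.02) were called higher and the sterol carrier gene Stard4, named after its values were seen, lower (-1.01). These are 2 and 3 of 13 called higher, against 11.6% and 10.2% of all genes. The list median was 0.48 in controls and 0.21 in IOP retinas. Scarb1 was at 24.1 and 18.9 FPKM in 3mo control and 50.1 and 47.1 in 18mo control, and with length and GC trends removed its difference was 0.63. Under the same correction Lrp1 was at 0.33 in controls and 0.66 in IOP retinas, no gene of the list was called higher, and the list medians were 0.14 in controls and -0.15 in IOP retinas, where the sign turned. With one library left out, 1 to 4 were called higher in controls (4 without 3mo control replicate 1) and 0 to 3 in IOP retinas (0 without either 3mo IOP library). No gene of the list was called lower in IOP retinas without the filter, without either 3mo IOP library or without 18mo IOP replicate 2, so the call of Stard4 was lost there. Mylip, which encodes a ubiquitin ligase induced by LXR, was at 7.34 to 10.4 FPKM in the single-elevation libraries, with a log2 age difference of 0.20 (limma adjusted p = 0.389) in controls and -0.05 (adjusted p = 0.838) in IOP retinas.

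Of 14 efflux, LXR and oxysterol genes, 12 were positive with age in controls and 11 in IOP retinas, with medians of 0.83 and 0.86, and with length and GC trends removed 0.34 and 0.48. In controls 4 were called higher, against 11.6% of all genes, and 0 lower: Abca7 (1.66) and Abcg4 (1.16), both ABC transporters, the phospholipid transfer protein gene Pltp (1.06) and, named after its values were seen, Lpcat3 (1.00), a phospholipid acyltransferase and LXR target. In IOP retinas 4 were called higher, against 10.2% of all genes, and 1 lower: Cyp27a1 (1.80), the sterol 27-hydroxylase, Apoe (1.76), the main apolipoprotein made by glia, Abca7 (1.60), Abca1 and, lower and named after its values were seen, Cyp7b1 (-1.17), which clears oxysterols. Apoe was at 553 and 349 FPKM in 3mo IOP and 1460 and 1513 in 18mo IOP. With length and GC trends removed Apoe was at 2.05 and Cyp27a1 at 1.74 in IOP retinas, but Abca7 was at 0.61 there. In controls Abca7 was then at 0.56, Abcg4 at 0.40, Pltp at 0.74 and Lpcat3 at 0.68, and 1 gene was called higher in place of 4. With median-of-ratios size factors 1 was called higher and 1 lower in controls. With one library left out 1 to 5 were called higher in controls (5 without 3mo control replicate 1 and 1 without either 18mo control library) and 1 to 6 in IOP retinas (1 without either 3mo IOP library). Cyp7b1 was at -0.74 with length and GC trends removed, and its call was lost there, without the filter, with only the groups compared and without either 3mo IOP library. Neither LXR gene was called. In the single-elevation libraries Nr1h3 ranged from 1.11 to 2.80 FPKM and Nr1h2 from 14.5 to 23.1. With age Nr1h3 was at 0.43 in controls (limma adjusted p = 0.137) and 0.62 in IOP retinas (adjusted p = 0.0495). Nr1h2 was at 0.22 in controls (adjusted p = 0.350) and -0.14 in IOP retinas (adjusted p = 0.566).

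**Figure D4:**
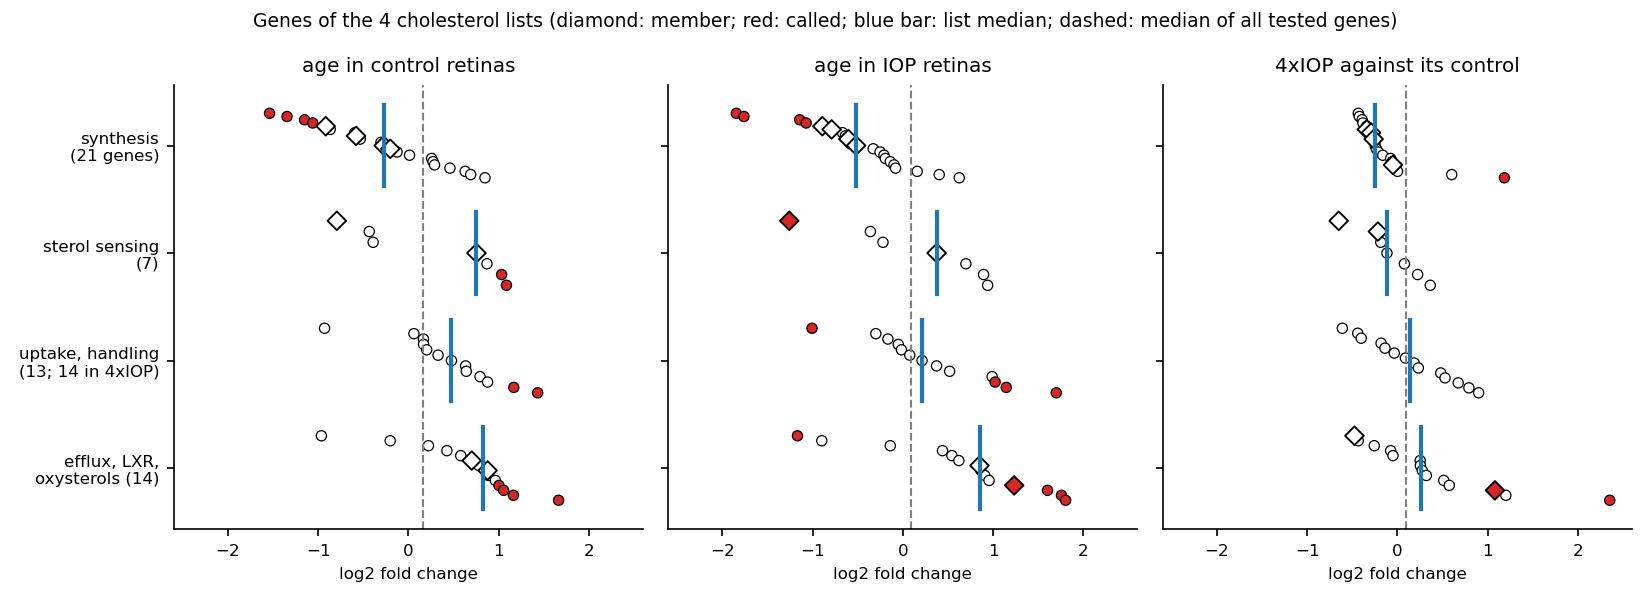
Log2 fold change (horizontal axes) of every tested gene of the 4 cholesterol lists for age in control retinas, age in IOP retinas and 4xIOP; diamonds are the 8 members, red symbols were called, blue bars are list medians and the dashed line is the median of all tested genes. With age the synthesis list lies left of the dashed line (medians -0.27 and -0.52) and the efflux list right of it (0.83 and 0.86).

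Cell type markers moved with age in the same libraries. In bulk tissue fewer cells of a type and less RNA per cell cannot be told apart. Of all genes, 57.1% were positive with age in controls and 54.4% in IOP retinas. In controls 11.6% were called higher and 11.6% lower, and in IOP retinas 10.2% and 11.6%. Müller glia markers summed to 494 and 600 FPKM in 3mo control and 1373 and 1083 in 18mo control, with 6 of 6 positive and 4 called higher. In IOP retinas they summed to 571 and 482 at 3mo and 1580 and 1302 at 18mo, with 5 of 6 called higher. Retinal ganglion cell markers went the other way, from 326 and 631 to 35.3 and 81.7 in controls (5 of 8 called lower) and from 455 and 524 to 89.2 and 31.7 in IOP retinas (8 of 8 called lower). Pigment epithelium markers were lower as well, from 186 and 208 in 3mo control to 10.7 and 3.46 in 18mo control and from 396 and 140 to 5.0 and 2.52 in IOP retinas, with 2 of the 8 listed markers at 3 reads or fewer in 18mo IOP replicate 2. Endothelial markers were higher, 9.83 and 7.17 against 50.2 and 49.7 in controls and 12.5 and 10.1 against 69.5 and 70.8 in IOP retinas, with 5 of 5 called. Rod markers were lower, at 20566 and 23456 against 17154 and 15318 in controls and 21230 and 20447 against 11616 and 13876 in IOP retinas, with 6 of 6 negative and 1 called in each. Of 10 microglia and macrophage markers, 10 were positive with age in controls (6 called higher) and 8 in IOP retinas (3 called higher). Lens markers summed to 10.4 and 7.36 against 1.68 and 2.58 in controls and 10.5 and 20.04 against 3.49 and 11.3 in IOP retinas. Blood markers differed within groups, at 19.5 and 262 in 3mo control, 29.3 and 313 after IOP at 3mo, 166 and 426 in 18mo control and 54.3 and 44.3 after IOP at 18mo. The part of these cells in the members' age differences was not tested. Several markers were under the 0.5 FPKM filter in their lowest library, among them Cdh5 (0.053 to 2.95 FPKM), Tek (0.097 to 2.03) and Pou4f2 (0.021 to 1.92). Such markers can reach the filter through the group where they are high, so the counts of markers called are a description and support nothing.

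A single elevation gave no called member at either age. In 3mo retinas 0.575% of all genes were called and in 18mo retinas 0.124%. The 3mo IOP libraries lay above both controls for 3 members (Hmgcs1, Sqle and Insig1) and below for 0, when 28.6% and 3.95% of all genes did so. At 18mo, 2 members (Sqle and Abca1) lay above and 1 (Cyp51) below, against 36.5% and 9.89% of all genes. At 3mo the members' log2 fold changes ran from -0.15 (Idi1) to 0.39 (Sqle), and at 18mo from -0.38 (Insig1, limma adjusted p = 0.859) to 0.57 (Abca1). For Abcg1 the 95% interval, not adjusted for the number of genes tested, was -0.48 to 0.48 at 3mo and -0.50 to 0.46 at 18mo. Changes within it are not excluded. With 2 libraries a group larger changes could also miss a call, as that of the synthesis gene Pmvk did at 3mo (1.14, limma adjusted p = 0.163).

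The difference in response between the ages, an interaction term in the same limma fit, was called for no gene (0.0%). It had an unadjusted p under 0.05 for 218 genes, none of them a member, and limma with voom on recovered reads also called 0. The interaction ran from -0.47 for Insig1 (95% interval -1.26 to 0.33) to 0.53 for Abca1 (-0.29 to 1.35). The age and single-elevation comparisons share libraries, so their values are not independent of each other.

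After 4 elevations Abca1 was the member that rose, while the synthesis members split between the 2 treated libraries. Abca1 was at 3.80 and 2.79 FPKM in 4xIOP control and 10.3 and 5.39 in 4xIOP. Both treated libraries were above both controls, and the treated ones differed from each other by more than the controls did. The log2 fold change was 1.08 (SE 0.27, 95% interval 0.50 to 1.67, limma adjusted p = 0.0245). It was the only one of 8 members called, and 6.15% of all genes were called (5.45% higher and 0.693% lower). The call did not hold on other settings that left its size at 0.98 to 1.08, among them median-of-ratios size factors (adjusted p = 0.200) and voom (adjusted p = 0.171), and its adjusted p over all alternatives ran from 0.00179 to 0.244. Without 4xIOP replicate 1 the value was 0.65 (adjusted p = 0.156), and without 4xIOP control replicate 2 it was 0.89 (adjusted p = 0.244).

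Abcg1 was at 14.8 and 17.8 FPKM in 4xIOP control and 12.96 and 10.3 in 4xIOP. Here the treated libraries were both below the controls, the reverse of Abca1, with a log2 fold change of -0.48 (SE 0.24, limma adjusted p = 0.386). Srebf2 also lay below without overlap, at 8.39 and 10.3 FPKM in controls and 7.67 and 8.19 in 4xIOP (-0.22, adjusted p = 0.822). These were the 2 members below without overlap, with 1 above, when 12.7% and 27.7% of all genes were so placed.

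For the other 5 members the treated libraries straddled the controls or reached them. Hmgcs1 was at 35.0 and 25.8 FPKM in control and 16.2 and 36.8 in 4xIOP. Insig1 was at 30.6 and 23.6 in control and 10.9 and 26.2 in 4xIOP. In both genes replicate 1 of 4xIOP was the lowest of the 4 libraries and replicate 2 was within or above the controls. Sqle was at 10.6 and 10.7 FPKM in control and 7.79 and 13.5 in 4xIOP. Cyp51 was at 11.5 and 10.5 in control and 6.51 and 11.3 in 4xIOP. The spread between the treated libraries was again wider than that between controls. Idi1 was at 1.91 and 1.61 FPKM in control and 0.940 and 1.95 in 4xIOP. None of the 5 passed, with log2 fold changes from -0.65 (Insig1, limma adjusted p = 0.450) to -0.05 (Sqle, adjusted p = 0.979).

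In 4xIOP replicate 1 the level over the control mean was 0.534 for Hmgcs1, 0.732 for Sqle, 0.534 for Idi1, 0.591 for Cyp51, 0.402 for Insig1 and 3.11 for Abca1. In replicate 2 the same ratios were 1.21, 1.27, 1.11, 1.03, 0.968 and 1.63. The low synthesis values and the highest Abca1 value thus came from the same library. That library had the lowest share of tags in exons of the 12, 44.2% against 53.7% in 4xIOP replicate 2 and 49.6% and 49.7% in the controls, and its size factor was 0.946 against 1.15 in replicate 2. The part of these differences in the split was not tested. With that library left out, the differences were 0.29 for Hmgcs1, 0.33 for Sqle, 0.12 for Idi1 and 0.04 for Cyp51, all of the opposite sign. The 21 synthesis enzymes behaved alike: 18 were negative with all libraries (median -0.25) and 4 without 4xIOP replicate 1 (median 0.14).

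**Figure D5:**
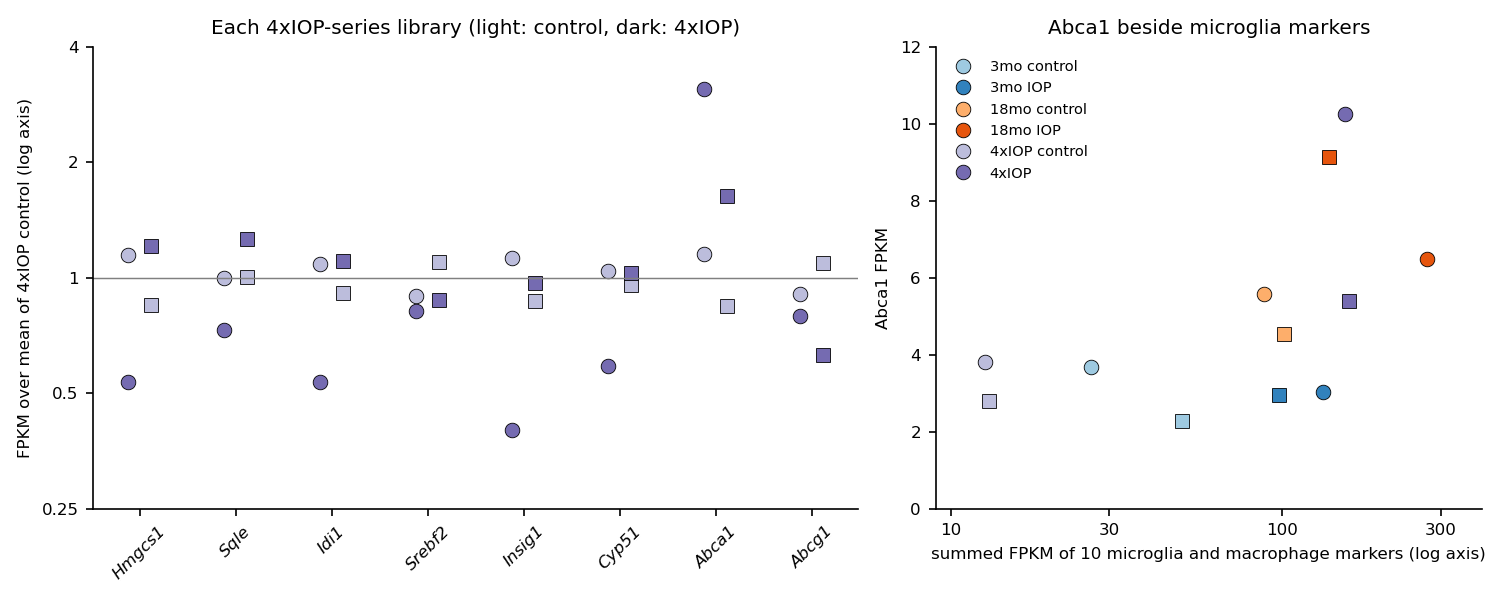
Left, FPKM of each member over the mean of the 2 4xIOP controls (log axis) in the 4 libraries of the second table, controls light and 4xIOP dark, circles replicate 1 and squares replicate 2. Right, Abca1 FPKM against the summed FPKM of 10 microglia and macrophage markers (log axis) in all 12 libraries, with levels of the 2 tables normalised separately; Abca1 is highest in 4xIOP replicate 1 at 10.3 FPKM.

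After 4 elevations 1 of 21 genes of the synthesis list was called, against 5.45% of all genes called higher, namely Pmvk, the phosphomevalonate kinase, which rose by 1.19 (limma adjusted p = 0.0303) from 21.3 and 14.9 FPKM to 31.6 and 53.7. With length and GC trends removed it was at 0.88, and no gene of the list was called higher there, without the filter, with the length trend removed, or without either control library or 4xIOP replicate 2. Among efflux and oxysterol genes 2 of 14 were called higher, Abca1 and Ch25h, the cholesterol 25-hydroxylase that macrophages induce. Ch25h reached the filter on low values through the treated libraries alone, so its call supports nothing and its values are given as a description. It was at 0.074 and 0.069 FPKM in control and 1.83 and 3.16 in 4xIOP, with 4 reads in each control library and 140 and 182 in the treated ones. Npc2 (0.90, adjusted p = 0.0162) and Lipa (0.79, adjusted p = 0.0216), which act on cholesterol in lysosomes and were named after their values were seen, were higher at adjusted p alone. They were 2 of 14 genes of the uptake and handling list, and 939 of all 13718 genes were higher by that measure. Of the genes always named, Insig2 was at 0.36, Nr1h3 at 0.51, Nr1h2 at -0.05 and Mylip at -0.14, with adjusted p from 0.247 to 0.976. After one elevation Pmvk, Npc2 and Lipa also lay above controls without overlap at both ages, and none was called. Of all genes, 28.6% at 3mo and 36.5% at 18mo lay above likewise. The log2 fold changes of Pmvk, Npc2 and Lipa were 1.14, 0.84 and 0.82 at 3mo and 0.93, 0.66 and 0.46 at 18mo. Their limma adjusted p ran from 0.163 to 0.802.

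Markers of other cells moved with treatment in the same 4 libraries. Microglia and macrophage markers summed to 12.7 and 13.1 FPKM in 4xIOP control and 155 and 159 in 4xIOP, with 10 of 10 positive and none at 0. Of all genes, 65.1% were positive in this comparison. Endothelial markers were at 21.2 and 27.8 in control and 48.7 and 54.0 in 4xIOP, and Müller glia markers summed to 813 and 865 in control and 526 and 620 in 4xIOP, with 4 of 6 positive and a median log2 fold change of 0.44. Ganglion cell markers were at 257 and 138 in control and 138 and 256 in 4xIOP, and blood markers at 56.1 and 37.3 in control and 37.5 and 56.8 in 4xIOP, both lower in replicate 1 of 4xIOP than in replicate 2. Infiltrating leukocyte markers summed to 1.15 and 0.939 in control, where 5 of 7 were at 3 reads or fewer in each library, and 158 and 156 in 4xIOP. Rod markers summed to 9297 and 9707 FPKM in control and 4575 and 6877 in 4xIOP, and were lowest in replicate 1. Lens markers were higher as well, 24.8 and 46.0 against 2.69 and 0.544, and pigment epithelium markers lower, 3.68 and 7.18 against 28.9 and 39.3. In the single-elevation table the microglia sum was 26.5 and 49.8 in 3mo control, 133 and 97.5 after IOP at 3mo, 88.3 and 101 in 18mo control and 274 and 139 after IOP at 18mo. The part of these cells in the level of Abca1 was not tested.

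Across the 8 single-elevation libraries each member had genes with a very similar pattern, given as a description with no test. The 2 genes with the highest Pearson correlation, out of 13723 other genes, were Iqgap2 and Gpr12 for Hmgcs1 (0.990 and 0.988) and Mitf and Angptl2 for Sqle (0.965 and 0.964). They were Kctd4 and Neurod6 for Idi1 (0.994 and 0.993) and Stc1 and Lypd6b for Cyp51 (0.983 and 0.974). For Insig1 they were Kcnip1 and Ankrd55 (0.990 and 0.985), and for Srebf2 Cdh24 and Plppr2 (0.989 for both). Abca1 was followed by Pak2 and Hspa1a (0.997 and 0.995), and Abcg1 by Jade1 and Sfxn2 (0.997 for both). The search left out all 8 members, so none could be a neighbour of another. None of these neighbours is one of the remaining genes of the cholesterol lists. The points share the libraries, their depth and the length balance given above.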

How the data were processed

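Retinas of 12 libraries were homogenised per eye and sequenced as strand-specific poly-A RNA. The authors mapped reads to mm10 with STAR (2.7.8a, per the processing notes) inside HOMER and counted uniquely mapped exon tags on the stranded setting, one isoform per locus. The deposited values are FPKM, in one table for the 8 single-elevation libraries and one for the 4 repeated-elevation libraries, normalised separately, so tests were run within a table only. A member holds the same transcript in both tables. Hmgcs1, Idi1 and Cyp51 overlap genes on the opposite strand only.

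Whole reads were recovered from FPKM and transcript length, with each library size fitted as the tag number that made reads whole. This gave the depth and the read counts. At least 99.98% of the values checked then lay within 0.1 read, scored with the same fitted sizes. The test was limma 3.58.1 (R 4.3.3) on log2(FPKM + 0.5) over genes whose mean reached 0.5 FPKM, with a variance trend, all groups of a table in one fit (4 and 2 residual degrees of freedom) and Benjamini-Hochberg adjustment over all tested genes. The p-values measure the spread between 2 libraries a group, which may in part be technical, and limma moderated the spread across genes (prior degrees of freedom 4.12 and 10.6), so that each p also rests on other genes. An exact permutation test of 2 against 2 could not go below 0.333. The fit was tested on simulated data.

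The 8 members, the 4 pathway lists, the marker lists and the motifs were chosen with earlier results of these data known. Every member is given in every library. From each pathway list the called genes that did not overlap between groups are named, at most the 3 with the largest change in a comparison, and Insig2, Nr1h3, Nr1h2 and Mylip always (other genes of this rule are not reported here). Genes named outside the rule are marked as named after their values were seen. Genes of similar pattern are the 2 with the highest Pearson correlation of log2(FPKM + 0.5). Alternatives were a pseudocount of 0.1, no filter, median-of-ratios size factors, removal of a length trend (spline with 5 degrees of freedom), voom on recovered reads, a replicate block, only the groups compared, adjusted p alone and leaving out each library. Removal of length and GC trends together, a crossed replicate block and the shorter motif were added after the data were seen. Promoter windows come from RefSeq (GRCm38.p6), and overlaps from the GENCODE annotation of the same assembly.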

Additional observations from a re-analysis of the deposited data

How the results depend on the processing

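With 2 libraries a group, several calls depended on one library, on the filter or on the scaling, and where a value moved the cause was not tested. Leaving out 4xIOP replicate 1 turned the sign of all 4 synthesis members after 4 elevations, and each difference after one elevation of 0.1 or less in log2 reversed in at least 1 setting. Median-of-ratios size factors moved the median of all genes by up to 0.17 in log2, and of the genes called with age in controls 1056 were then higher and 1959 lower, against 1595 and 1590. For 4xIOP 748 were higher and 95 lower, and with length and GC trends removed 579 and 159.

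For age in controls, 0 members were called, but 1 (Idi1) with a pseudocount of 0.1 (-1.12), with size factors (-1.06), with the length trend removed (-1.13) or with voom (-1.36), 4 at adjusted p alone, and 0 to 3 when one library was left out (3 without 3mo control replicate 1, namely Idi1, Srebf2 and Abcg1). The 3185 genes called became 6297 at adjusted p alone, 1384 with length and GC trends removed, and 1176 to 4717 with one library left out. For age in IOP retinas, 2 members were called, 7 at adjusted p alone, 1 with length and GC trends removed (Abca1 lost, 0.65), and 0 to 3 with one library left out. Idi1 was gained with a pseudocount of 0.1 (-1.13) and with voom (-1.29), making 3, and without 18mo IOP replicate 1 (-1.06). With the length trend alone removed 2 were called, but Abca1 was lost (0.67) and Idi1 gained (-1.04). The 3000 genes called became 5846 at adjusted p alone, 1500 with length and GC trends removed and 722 to 2811 with one library left out. Srebf2 reversed with length and GC trends removed, to -0.16 in controls and -0.40 in IOP retinas. With one library left out the control values of Idi1 ran from -1.19 to -0.64, of Srebf2 from 0.32 to 1.19 and of Abcg1 from 0.58 to 1.17, and the IOP values of Idi1 from -1.06 to -0.73, of Insig1 from -1.60 to -0.92 and of Abca1 from 1.00 to 1.46.

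For IOP at 3mo the 79 genes called became 9 without the filter, 10 with size factors, 3 with voom, 22 with length and GC trends removed and 0 to 257 with one library left out. Hmgcs1 reversed with size factors (-0.063), the length trend removed (-0.030) and voom (-0.064). Reversed in the same 3 settings were Insig1 (-0.10, -0.12 and -0.10), Cyp51 (-0.13, -0.060 and -0.14) and Abcg1 (-0.18, -0.056 and -0.19), and with GC removed too (-0.10, -0.021 and -0.12), and Abca1 with size factors (-0.13) and voom (-0.15). One library left out gave Idi1 -0.42 to 0.13, Srebf2 -0.14 to 0.73, Abca1 -0.26 to 0.33 and Abcg1 -0.29 to 0.30. For IOP at 18mo the 17 genes called became 0 with a pseudocount of 0.1, size factors, voom, length and GC trends removed or only the groups compared, 1 without the filter and 0 to 144 with one library left out. Sqle reversed to -0.037 with size factors, -0.059 with the length trend removed, -0.040 with voom and -0.060 with GC removed too. One library left out gave Hmgcs1 -0.18 to 0.016, Idi1 -0.29 to 0.043, Srebf2 -0.32 to 0.15 and Abcg1 -0.067 to 0.018.

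For the interaction, 0 genes were called, 2 without the filter and 0 to 2 with one library left out. Idi1 reversed with a pseudocount of 0.1 (-0.0020) and with length and GC trends removed (-0.033), and Abcg1 with size factors (0.042), voom (0.045) and length and GC trends removed (0.016). One library left out gave Idi1 -0.25 to 0.30, Srebf2 -0.81 to 0.052 and Abcg1 -0.32 to 0.27. For 4xIOP, the 1 member called (Abca1) became 0 without the filter, with size factors, with the length trend removed, with voom and with length and GC trends removed, and 0 to 2 with one library left out. One library left out gave Hmgcs1 -0.87 to 0.29, Sqle -0.43 to 0.33, Idi1 -0.65 to 0.12, Insig1 -1.27 to -0.034, Cyp51 -0.72 to 0.038 and Abca1 0.65 to 1.52. Of the 592 values of single members under all alternatives, 514 kept sign and side of the threshold.

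Nothing in the labels says that a replicate number marks an animal, and same-numbered libraries deviated in opposite directions (r = -0.28 at 3mo, -0.53 at 18mo and -0.29 in the repeated series). With the number as a replicate block, 53 genes were called for IOP at 3mo, 0 at 18mo, 0 for the interaction and 864 for 4xIOP, and no member changed its call. With the pairing crossed, a setting added after seeing the data, 66, 0, 0 and 894 genes were called.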
